A study of Mus musculus with 13 samples.

Results

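Sgk3 and 7 genes of the phosphoinositide 3-kinase (PI3K) and AKT pathway were described across Tet1 genotypes of mouse germ cells. The 8 genes were Sgk3, Sgk1, Akt1, Akt2, Pdpk1, Pik3ca, Foxo1 and Foxo3, out of 35976 gene symbols in the deposited count table. All 8 were in the table and passed the filter on low counts. Sgk3 was chosen by its measured level in these libraries, which is lower in the mutants than in WT and lowest in KO. Its values are therefore given as a description, with no test. The other 7 genes were chosen as parts of the same pathway, with earlier results of these data known.

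RNA was sequenced from primordial germ cells, from which sperm later arise, of male E14.5 embryos, and 3 libraries of each of 4 genotypes were analysed. TET1 is an enzyme that oxidises methylated cytosine in DNA. By its label KO is a Tet1 knockout. The HxD allele is known to give a TET1 protein without catalytic activity, and the V allele one that stalls at hydroxymethylcytosine. WT carries the wild-type gene. In all 4 genotypes the cells were sorted by Oct4-GFP, a reporter that makes germ cells fluoresce. It is not stated which part of Tet1 is missing in KO, nor whether libraries of a genotype came from separate embryos. The p-values therefore reflect the spread among these libraries alone, and that spread may be technical.

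The PI3K-AKT pathway carries growth and survival signals from receptors at the cell surface. Class I PI3K, whose catalytic subunit is encoded by Pik3ca, makes the membrane lipid PIP3. PIP3 brings AKT kinases to the membrane, where PDPK1 phosphorylates a threonine in their activation loop. SGK kinases are close relatives of AKT that PDPK1 phosphorylates at the matching threonine. SGK3 differs from SGK1 and AKT in carrying a PX domain, which binds the endosomal lipid PI3P, a product of class III PI3K. AKT and SGK kinases phosphorylate FOXO transcription factors, which then leave the nucleus. In mouse germ cells, KIT acts through PI3K, and FOXO1 is needed for maintenance of spermatogonial stem cells.

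The activation loop shows how the 4 kinases are related and where PDPK1 acts on each. The coding sequences below come from the GENCODE M21 transcripts on GRCm38, 5′ to 3′, and each holds 54 bases. Capitals mark the codon of the threonine that PDPK1 phosphorylates.
Sgk3: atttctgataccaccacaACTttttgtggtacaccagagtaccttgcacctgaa
Sgk1: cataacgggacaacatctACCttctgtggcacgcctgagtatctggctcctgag
Akt1: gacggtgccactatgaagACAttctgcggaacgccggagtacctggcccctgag
Akt2: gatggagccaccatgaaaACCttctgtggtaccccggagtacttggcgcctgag
The Sgk3 sequence lies at chr1:9885715-9886061 on the plus strand, in exons 13 and 14, and its marked codon is number 320 of 496. The Sgk1 sequence lies at chr10:21997064-21997356 on the plus strand, in exons 10 and 11, with codon 349 of 524 marked. An intron falls inside both of these spans. The Akt1 sequence lies at chr12:112657068-112657121 on the minus strand, in exon 10, with codon 308 of 480 marked. The Akt2 sequence lies at chr7:27636114-27636167 on the plus strand, in exon 10, with codon 309 of 481 marked. Akt1 and Akt2 shared 44 of the 54 bases. Sgk3 shared 34 with Sgk1, 33 with Akt1 and 36 with Akt2, and its longest identical run with any of these kinases was 8 bases.

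Whole transcripts of the 8 genes were also searched for stretches shared with other genes. Of all distinct 50-base stretches in annotated Sgk3 transcripts, 0.166% also occurred in a transcript of another gene. The share was 0.243% for Sgk1, 0.603% for Pdpk1 and 0.353% for Pik3ca. No such stretch was found for Akt1 or Foxo3. It reached 9.76% for Akt2, in each case shared with the pseudogene Akt2-ps, and 6.8% for Foxo1, shared with 10 other genes. Counts of Akt2 and Foxo1 may therefore depend on how reads with more than 1 origin were treated, which is not given in the sources used here.

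Library totals were between 13584484 counts (V 3) and 29641963 counts (HxD 1), and the number of genes with a count from 11529 in WT 3 to 15715 in V 2. WT 3 lay apart on the first 2 principal components and V 3 on the third. Of the genes averaging at least 8 CPM (reads of a gene relative to all reads of its library, after TMM scaling), 104 had no count in WT 3, and no other library had more than 36 such genes. Tet1 had 213, 201 and 225 CPM in KO libraries, against 596, 589 and 639 CPM in WT libraries, and was lower in KO (log2 fold change -1.51, edgeR adjusted p = 1.41e-05). The summed level of 9 germ cell markers was 3259 to 3564 CPM in KO, 3073 to 3987 CPM in HxD, 3575 to 3884 CPM in V and 4362 to 4522 CPM in WT, and 8 of the 9 were detected in every library. The markers did not move together. Dazl, an RNA-binding regulator, averaged 849 CPM in KO, 793 CPM in HxD, 953 CPM in V and 1754 CPM in WT, and was lower in KO and HxD (edgeR adjusted p = 0.00943 in KO and 0.00935 in HxD). Ddx4, an RNA helicase, averaged 532, 590, 704 and 862 CPM in KO, HxD, V and WT (edgeR adjusted p = 0.0823 in KO). Tfap2c, a germ cell transcription factor, averaged 128, 135, 131 and 76.5 CPM in KO, HxD, V and WT, with every mutant library above every WT library (edgeR adjusted p = 0.212 in KO). Pou5f1, the gene behind the Oct4 reporter, averaged 357, 464, 516 and 316 CPM in KO, HxD, V and WT, and HxD and V lay above WT in every library. Dnd1 averaged 257 CPM in KO and 171 CPM in WT, with all KO libraries above all WT libraries. The summed 7 Sertoli cell markers had 372 CPM in V 2 and 136 CPM in WT 3, and stayed at or below 76.2 CPM in every other library. The summed Leydig, interstitial, endothelial, macrophage and erythroid lists each stayed at or below 28.6 CPM.

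Sgk3 encodes the PX-domain kinase of the SGK family. Its level was 24.0, 22.0 and 27.3 CPM in KO libraries and 29.7, 33.8 and 35.7 CPM in HxD libraries. It was 52.7, 49.6 and 54.5 CPM in V libraries, against 83.0, 64.4 and 111 CPM in WT libraries. The levels ran KO, HxD, V and WT from low to high, and no 2 genotypes overlapped. These CPM rest on 469 to 716 reads of Sgk3 per KO library, 553 to 868 per HxD library, 743 to 1178 per V library and 1417 to 2528 per WT library.

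The mean Sgk3 level was 24.5 ± 2.68 CPM in KO, 33.1 ± 3.10 CPM in HxD, 52.3 ± 2.48 CPM in V and 86.1 ± 23.3 CPM in WT (SD, n = 3 each). Relative to the WT mean, the KO level was 28.4%, the HxD level 38.4% and the V level 60.7%. The corresponding log2 fold changes were -1.81, -1.38 and -0.72. Between mutants they were -0.43 for KO over HxD, -1.09 for KO over V and -0.66 for HxD over V. The 3 WT libraries had the widest spread, and WT 3, which stood apart across all genes, had the highest value. With WT 3 and V 3 set aside, the log2 fold changes against WT were -1.59 for KO, -1.16 for HxD and -0.53 for V. The lowest WT value came from WT 2 and lay above every V library.

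Of 14702 genes tested, 1, or 0.0068%, had 4 genotypes that did not overlap in any of the 6 pairs, and it was Sgk3. The same held with RLE scaling, and with total counts alone Rbm44, which encodes a protein of the bridges between germ cells, was the other such gene. Because Sgk3 was picked for its order across these genotypes, nothing is read from this count. The summed germ cell markers were also higher in every WT library than in every mutant library. Dazl had the largest difference in that sum in all 3 mutants. The averages of Ddx4 ran in the same order of genotypes as those of Sgk3, and Tfap2c had its lowest levels in WT. In bulk samples, fewer cells of a type and less RNA per cell cannot be told apart. The part of the marker difference in the Sgk3 levels was not tested.

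**Figure D1:**
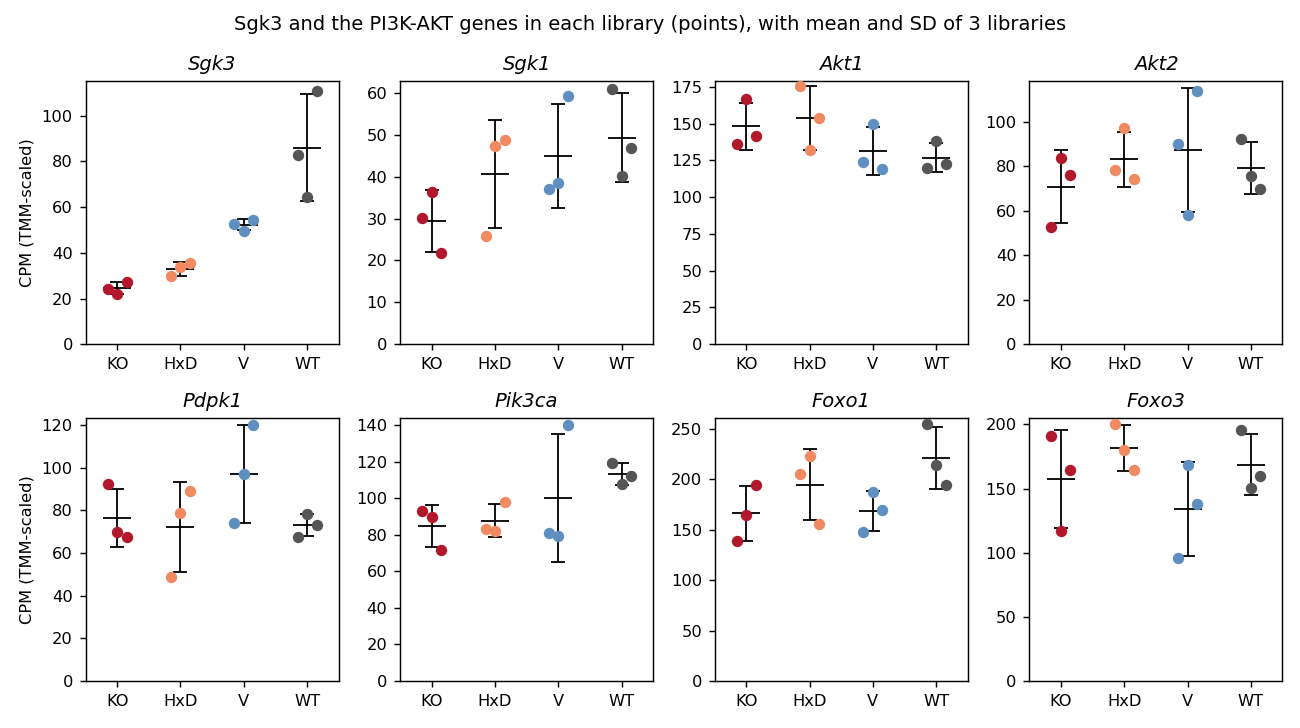
Level of each of the 8 genes in CPM, for each library (points), with the mean and SD of 3 libraries (bars), by genotype. The Sgk3 values lie between 22.0 and 27.3 in KO, between 29.7 and 35.7 in HxD, between 49.6 and 54.5 in V and between 64.4 and 111 in WT.

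The other SGK kinase measured, Sgk1, is known for its induction by hormones and growth factors. It had 30.2, 36.5 and 21.8 CPM in KO libraries and 25.8, 47.3 and 48.8 CPM in HxD libraries. It had 37.0, 38.5 and 59.4 CPM in V libraries, against 60.9, 40.1 and 47.0 CPM in WT libraries. Every KO library lay below every WT library and every V library, while HxD and V overlapped with WT. On the log2 scale KO over WT was -0.74 (SE 0.34, 95% interval -1.43 to -0.06, edgeR adjusted p = 0.56), which did not pass the test over all genes. The values were -0.28 for HxD (edgeR adjusted p = 0.941) and -0.13 for V (edgeR adjusted p = 1). The third family member, Sgk2, had no count in any library.

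PDPK1 is the kinase that acts on both SGK and AKT. Pdpk1 ranged over 67.4 to 92.2 CPM in KO, 48.7 to 89.2 CPM in HxD, 74.2 to 120 CPM in V and 67.7 to 78.2 CPM in WT, and each mutant overlapped with WT. Its log2 fold changes were 0.06 in KO, -0.02 in HxD and 0.41 in V (95% interval -0.10 to 0.92, edgeR adjusted p = 0.834).

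AKT1 and AKT2 are the AKT kinases best known for growth and for insulin responses. Akt1 averaged 148 ± 16.1 CPM in KO, 154 ± 22.0 CPM in HxD, 131 ± 16.4 CPM in V and 127 ± 9.88 CPM in WT (SD, n = 3 each). The 95% intervals of its log2 fold change were -0.16 to 0.60 for KO, -0.10 to 0.66 for HxD and -0.33 to 0.43 for V. Akt2 averaged 70.9 ± 16.4 CPM in KO, 83.3 ± 12.4 CPM in HxD, 87.4 ± 27.9 CPM in V and 79.3 ± 11.5 CPM in WT (SD, n = 3 each), with intervals of -0.67 to 0.35, -0.44 to 0.59 and -0.37 to 0.65 for KO, HxD and V against WT. All 3 mutants overlapped with WT for both genes.

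Pik3ca encodes the alpha catalytic subunit of class I PI3K. It had 93.1, 89.6 and 71.8 CPM in KO libraries and 83.2, 82.2 and 98.1 CPM in HxD libraries. It had 81.1, 79.1 and 140 CPM in V libraries, against 120, 108 and 112 CPM in WT libraries. All KO and HxD libraries lay below all WT libraries, and V overlapped with WT through V 3, the library that stood apart. The log2 fold changes were -0.42 in KO (SE 0.22, edgeR adjusted p = 0.635), -0.37 in HxD (SE 0.22, edgeR adjusted p = 0.638) and -0.18 in V (edgeR adjusted p = 1), and none passed the test.

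The FOXO factors are the transcription factors that AKT and SGK kinases phosphorylate. Foxo1 had 139, 165 and 194 CPM in KO libraries and 205, 224 and 156 CPM in HxD libraries. It had 148, 188 and 169 CPM in V libraries, against 255, 214 and 194 CPM in WT libraries. All V libraries lay below all WT libraries, and KO overlapped with WT only where KO 3 and WT 3 had nearly equal values. The log2 fold changes were -0.41 in KO (SE 0.19, edgeR adjusted p = 0.56), -0.18 in HxD (edgeR adjusted p = 0.9) and -0.39 in V (SE 0.19, edgeR adjusted p = 0.82). Foxo3 averaged 157 ± 37.9 CPM in KO, 182 ± 17.8 CPM in HxD, 134 ± 36.4 CPM in V and 169 ± 24.1 CPM in WT (SD, n = 3 each), and every mutant overlapped with WT. Its log2 fold changes were -0.10 in KO, 0.11 in HxD and -0.33 in V (edgeR adjusted p = 0.85 in V).

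None of the 7 genes other than Sgk3 passed the edgeR test at an adjusted p of 0.05, in any of the 6 comparisons. Across all genes tested, the shares that passed were 0.218% for KO against WT, 0.034% for HxD against WT and 0% for V against WT, and 0.0068% for KO against HxD, 0.0204% for KO against V and 0% for HxD against V. At an unadjusted p under 0.05 there were 2 of the 7 genes for KO against WT, Sgk1 and Foxo1, beside 8.3% of all genes. There were 0 for HxD against WT, beside 8.24%, and 1 for V against WT, Foxo1, beside 6.05%. DESeq2 called none of the 7 either, beside 274 of all 14702 genes for KO against WT and 213 for HxD against WT. Between mutants there were 0 for KO against HxD, beside 4.67% of all genes, 0 for KO against V, beside 4.1%, and 1 for HxD against V, beside 5.07%. That gene was Foxo3, whose HxD over V value was 0.44 on the log2 scale (SE 0.21, edgeR adjusted p = 0.861). Groups did not overlap for 2 of the 7 in KO against WT, beside 16.3% of all genes, for 1 in HxD against WT, beside 12.5%, and for 1 in V against WT, beside 11.8%. Between mutants they did not overlap for 0 of the 7 in KO against HxD, beside 9.33% of all genes, for 1, Sgk1, in KO against V, beside 10.3%, and for 0 in HxD against V, beside 7.99%. The 3 comparisons with WT share the WT libraries, so a gene that was high or low in WT moves all of them.

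**Figure D2:**
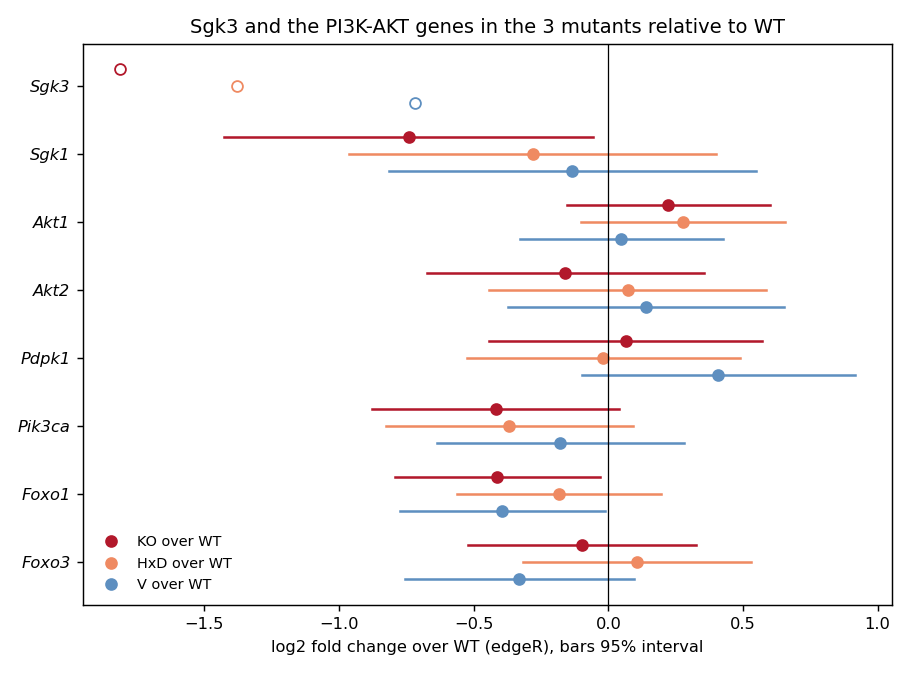
Log2 fold change of each of the 8 genes in KO, HxD and V relative to WT, with 95% intervals from the edgeR fit for all but Sgk3. Sgk3 (open circles), chosen for these values, lies at -1.81, -1.38 and -0.72, and the other 7 genes lie between -0.74 and 0.41.

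Levels of different genes were compared per kilobase of transcript (RPKM, from CPM and the longest protein-coding transcript), since counts grow with length. In KO, Akt1 was the highest of the 8 genes at 55.0 RPKM and Sgk3 the lowest at 6.47 RPKM. In WT, Akt1 was again the highest at 47.2 RPKM, while Sgk3 had 22.8 RPKM, next below Foxo1 at 25.5 and Foxo3 at 24.6 RPKM. The Sgk3 range in KO, 5.83 to 7.23 RPKM, lay below that of Pik3ca, its next neighbour, at 8.05 to 10.4 RPKM. The Sgk3 range overlapped with that of Sgk1, at 7.03 to 11.8 RPKM in KO. In WT the Sgk3 range, 17.1 to 29.3 RPKM, overlapped with those of Foxo3 above it and Akt2 below it. Sgk1 stood at 9.52 RPKM in KO and 15.9 RPKM in WT. Among neighbours in the WT order, only Akt1 and Foxo1, and Pik3ca and Pdpk1, did not overlap.

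The rest of the pathway was read from 9 lists with 120 genes in all, of which 113 passed the filter on low counts. Besides Sgk2, the genes left out were Pik3r6, Pik3c2g, Inpp4b, Prr5l, Tnfsf10 and G6pc. Of the 105 tested genes that were not among the 8, edgeR called 0 in KO, 0 in HxD and 0 in V against WT. At an unadjusted p under 0.05, 5 were higher and 5 lower in KO, 9 higher and 5 lower in HxD, and 3 higher and 4 lower in V. These were 9.52% of the 105 genes in KO, beside 8.3% of all genes, 13.3% in HxD, beside 8.24%, and 6.67% in V, beside 6.05%. The median log2 fold change of the 105 genes was 0.04 in KO, 0.00 in HxD and 0.03 in V. Over all genes tested it was 0.00, -0.02 and 0.01. Groups did not overlap with WT for 17.1% of the 105 in KO, beside 16.3% of all genes. The shares were 11.4% in HxD, beside 12.5%, and 10.5% in V, beside 11.8%. DESeq2 called 2 of the 105 genes in KO, Tbc1d4 and Fgfr1, and 0 in HxD and V. Over all 14702 genes tested, DESeq2 called 274 in KO and 213 in HxD, so nothing is read from these 2 calls. Kit and Pik3c3 apart, the genes outside the 8 named below from each list had its smallest p against WT. Their distance from WT follows in part from that choice.

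Upstream, the list of 20 receptors, ligands and adaptors had a median log2 fold change of 0.45 in KO, 0.32 in HxD and 0.14 in V. Fgfr1, a receptor for fibroblast growth factors, had 171, 168 and 170 CPM in KO libraries, against 102, 130 and 80.9 CPM in WT libraries. All KO libraries lay above all WT libraries, and the log2 fold change was 0.70 (SE 0.21, edgeR adjusted p = 0.215). The HxD libraries, at 146, 141 and 136 CPM, also lay above all WT libraries (0.44 on the log2 scale, edgeR adjusted p = 0.6). V overlapped with WT. Gab2, an adaptor that binds the regulatory subunit of PI3K, had 51.2, 26.1 and 53.2 CPM in KO libraries, against 16.4, 22.9 and 25.4 CPM in WT libraries (log2 fold change 1.01, SE 0.43, edgeR adjusted p = 0.526). All KO and HxD libraries of Gab2 lay above all WT libraries (0.72 in HxD, edgeR adjusted p = 0.629), and V overlapped with WT. Kit, the receptor for KIT ligand in germ cells, was chosen after its values were seen. It averaged 604 ± 162 CPM in KO, 601 ± 127 CPM in HxD, 432 ± 149 CPM in V and 462 ± 69.9 CPM in WT (SD, n = 3 each), and all 3 mutants overlapped with WT.

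Among class I PI3K genes, 10 of 11 were tested and the median log2 fold change was -0.27 in KO, -0.25 in HxD and -0.04 in V. Pik3r3, a regulatory subunit, had 68.4, 102 and 97.9 CPM in KO libraries and 137, 105 and 94.7 CPM in HxD libraries. It had 61.0, 87.6 and 140 CPM in V libraries, against 219, 153 and 118 CPM in WT libraries. The KO libraries all lay below the WT libraries. Its log2 fold change was -0.87 in KO (SE 0.26, edgeR adjusted p = 0.213), -0.54 in HxD and -0.76 in V. It was called in KO in 3 alternative fits, with no expression filter, with a replicate block and without V replicate 1. Pik3r2, another regulatory subunit, averaged 92.8 ± 20.9 CPM in HxD and 143 ± 23.6 CPM in WT (SD, n = 3 each; log2 fold change -0.62, edgeR adjusted p = 0.401). Its KO libraries, averaging 120 ± 4.86 CPM, and its HxD libraries all lay below the WT libraries.

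SGK3 depends on PI3P, which the class III lipid kinase makes. The 7 tested of 8 class II and III genes had medians of 0.12 in KO, 0.08 in HxD and -0.15 in V. Pik3c2b, a class II kinase, averaged 59.1 ± 10.3 CPM in KO and 34.8 ± 5.96 CPM in WT (SD, n = 3 each), with KO above WT in every library (log2 fold change 0.76, edgeR adjusted p = 0.538). Pik3c2b averaged 58.7 ± 26.4 CPM in HxD (log2 fold change 0.75, edgeR adjusted p = 0.582), and both HxD and V overlapped with WT. Atg14, a subunit of the class III complex in autophagy, averaged 82.0 ± 7.69 CPM in V and 109 ± 23.4 CPM in WT (SD, n = 3 each; edgeR adjusted p = 0.833). Pik3c3, the class III catalytic subunit, was chosen after its values were seen, and averaged 74.0, 70.4, 60.1 and 66.8 CPM in KO, HxD, V and WT.

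The phosphatases, which remove the lipid signal or the kinase phosphates, had 14 of 15 genes tested, with medians of 0.02 in KO, 0.09 in HxD and -0.04 in V. Ppp2cb, a catalytic subunit of protein phosphatase PP2A, averaged 156 ± 25.9 CPM in HxD and 114 ± 6.90 CPM in WT (SD, n = 3 each; log2 fold change 0.46, edgeR adjusted p = 0.568). Its KO libraries, averaging 133 ± 11.9 CPM, and its HxD libraries all lay above the WT libraries. Inpp4a, which acts on PI3K lipid products, had 25.9, 32.5 and 10.7 CPM in V libraries, against 57.6, 36.5 and 17.2 CPM in WT libraries, and the groups overlapped.

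The mTOR list had 17 of 18 genes tested, with medians of -0.11 in KO, -0.09 in HxD and -0.05 in V. Tsc1, part of the complex through which AKT acts on mTOR, had 87.8, 137 and 107 CPM in KO libraries and 118, 142 and 103 CPM in HxD libraries. It had 113, 95.8 and 112 CPM in V libraries, against 191, 122 and 204 CPM in WT libraries. The V libraries lay below all WT libraries, whereas KO and HxD overlapped with WT 2. Its log2 fold changes were -0.64 in KO (edgeR adjusted p = 0.302), -0.51 in HxD (edgeR adjusted p = 0.562) and -0.69 in V (edgeR adjusted p = 0.577). Rictor, the defining subunit of mTORC2, which phosphorylates AKT and SGK in their hydrophobic motif, averaged 159 ± 18.8 CPM in KO, 150 ± 41.0 CPM in V and 214 ± 39.3 CPM in WT (SD, n = 3 each). Its log2 fold change was -0.43 in KO (edgeR adjusted p = 0.604) and -0.52 in V (edgeR adjusted p = 0.759), and both genotypes lay below WT in every library. The list of SGK and AKT kinases, which holds Sgk3 itself, had 6 of 7 genes tested and medians of -0.16 in KO, -0.14 in HxD and -0.04 in V.

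**Figure D3:**
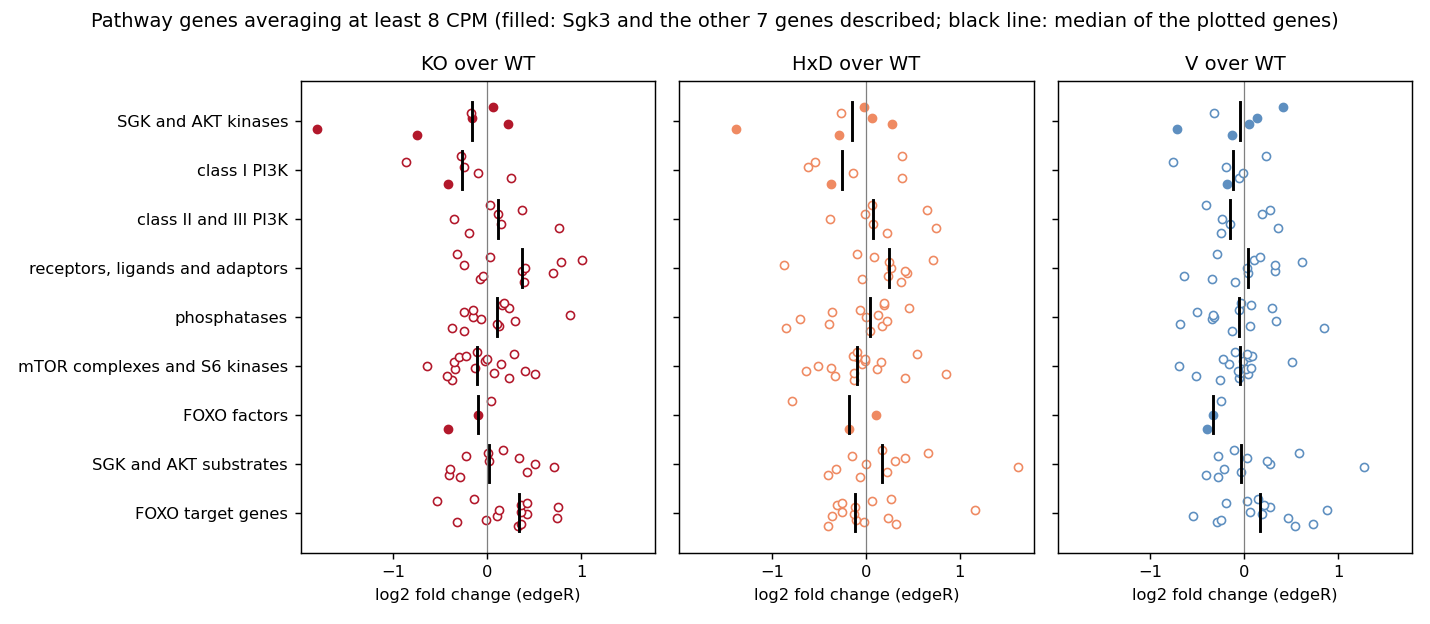
Log2 fold change relative to WT of each gene of the 9 pathway lists averaging at least 8 CPM, for KO, HxD and V. Filled points are Sgk3 and the other 7 genes, and black lines are medians of the plotted genes, which leave out the weaker genes that the medians in the text include. No gene outside the 8 was called by edgeR in these comparisons, and Sgk3 in KO lies at -1.81.

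Downstream, the 4 FOXO factors had medians of -0.03 in KO, -0.48 in HxD and -0.29 in V, and those not yet described were Foxo4 and Foxo6. Foxo4 had 88.7, 113 and 108 CPM in KO libraries and 86.1, 42.1 and 47.6 CPM in HxD libraries. It had 87.9, 90.6 and 75.7 CPM in V libraries, against 97.1, 104 and 102 CPM in WT libraries. HxD and V lay below WT in every library, and HxD 2 and HxD 3 had the lowest values of all 12. The log2 fold change in HxD was -0.78 (SE 0.24, edgeR adjusted p = 0.377), and without HxD replicate 1 it was -1.17 and was called. Foxo6 was at or below 4.37 CPM in every library. Its log2 fold change in HxD, -1.24 (SE 2.60), is the lowest of the 4 factors, and the HxD median depends on it.

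Substrates of AKT and SGK kinases had medians of 0.10 in KO, 0.09 in HxD and 0.00 in V over 14 genes. Tbc1d4, a regulator of glucose transporter traffic, had 12.7, 8.32 and 2.83 CPM in KO libraries, 0, 7.06 and 1.03 CPM in HxD libraries and 0, 2.58 and 1.25 CPM in V libraries. WT libraries held 0, 2 and 0 reads of it, and the edgeR adjusted p in KO was 0.367. Bad, which promotes apoptosis until it is phosphorylated, had 30.2, 18.0 and 28.4 CPM in HxD libraries, against 9.17, 10.8 and 4.95 CPM in WT libraries. The HxD libraries all lay above the WT libraries, and the log2 fold change was 1.62 (SE 0.61, edgeR adjusted p = 0.494). V libraries had 27.9, 25.4 and 6.97 CPM of Bad (1.28 on the log2 scale, edgeR adjusted p = 0.82). V and KO overlapped with WT.

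Genes known as FOXO targets had medians of 0.13 in KO, -0.10 in HxD and 0.19 in V over 21 tested of 23. The list was not limited to genes that FOXO factors activate, so these medians do not measure FOXO activity. Klf2, a zinc finger transcription factor, had 22.8, 42.7 and 22.5 CPM in KO libraries and 34.2, 87.3 and 59.1 CPM in HxD libraries. It had 61.3, 54.2 and 32.7 CPM in V libraries, against 25.7, 24.7 and 30.1 CPM in WT libraries. HxD and V lay above WT in every library and KO overlapped with it. The log2 fold changes were 1.17 in HxD (edgeR adjusted p = 0.377), 0.88 in V (edgeR adjusted p = 0.757) and 0.13 in KO (edgeR adjusted p = 1). Ccnd2, a cyclin that FOXO factors are known to repress, had 3.89, 1.17 and 2.75 CPM in KO libraries, against 10.5, 11.4 and 20.6 CPM in WT libraries. The KO libraries all lay below the WT libraries (-2.44 on the log2 scale, SE 1.18, edgeR adjusted p = 0.592). The HxD libraries, at 5.95, 3.04 and 5.17 CPM, did so too (-1.58, edgeR adjusted p = 0.732), and V overlapped with WT.

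The genes next to Sgk3 were looked up in the order of RefSeq, without coordinates. They were 1700034P13Rik, Gm39590 and Gm51615 on one side and Gm6195, Gm2352 and Mcmdc2 on the other, of which only Mcmdc2 passed the filter on low counts. Vcpip1, Snhg6 and Snord87 are the nearest further genes that passed it and are described as well. Vcpip1, a deubiquitinase, averaged 104 CPM in KO, 111 CPM in HxD, 106 CPM in V and 117 CPM in WT, with log2 fold changes of -0.18, -0.08 and -0.14. Mcmdc2, a meiotic recombination gene in mouse, averaged 6.54 CPM in KO, 4.39 CPM in HxD, 8.74 CPM in V and 4.08 CPM in WT. Snhg6, a noncoding host of small RNA, averaged 18.4 CPM in KO, 12.9 CPM in HxD, 12.3 CPM in V and 12.8 CPM in WT. Snord87, a small nucleolar RNA gene, was at or below 5.43 CPM in every library. None of these genes was called by edgeR in any mutant against WT.

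The genes most like Sgk3 across the 12 libraries were found by the root mean square difference of centred log2 CPM, among 9249 genes averaging at least 8 CPM. They were Hspa4l, a heat shock protein relative, at 0.320, followed by Tmem107, a protein of the ciliary transition zone, at 0.364, Bcar1, a focal adhesion adaptor, at 0.365, Ift88, an intraflagellar transport protein, at 0.369, and Tgif1, a repressor of TGF-beta signalling, at 0.371. The median over the compared genes was 0.799. Hspa4l had 44.9, 43.6 and 52.8 CPM in KO libraries and 55.8, 70.1 and 56.9 CPM in HxD libraries. It had 76.5, 55.0 and 89.4 CPM in V libraries, against 98.2, 70.9 and 149 CPM in WT libraries. Its KO libraries were the lowest of the 12 and WT 3 was the highest, as for Sgk3, but V overlapped with both HxD and WT. Of the other 7 pathway genes, Sgk1 ranked 183 in likeness to Sgk3, Pik3ca 363 and Foxo1 972, and the remaining 4 ranked from 2401 to 5198.

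**Figure D4:**
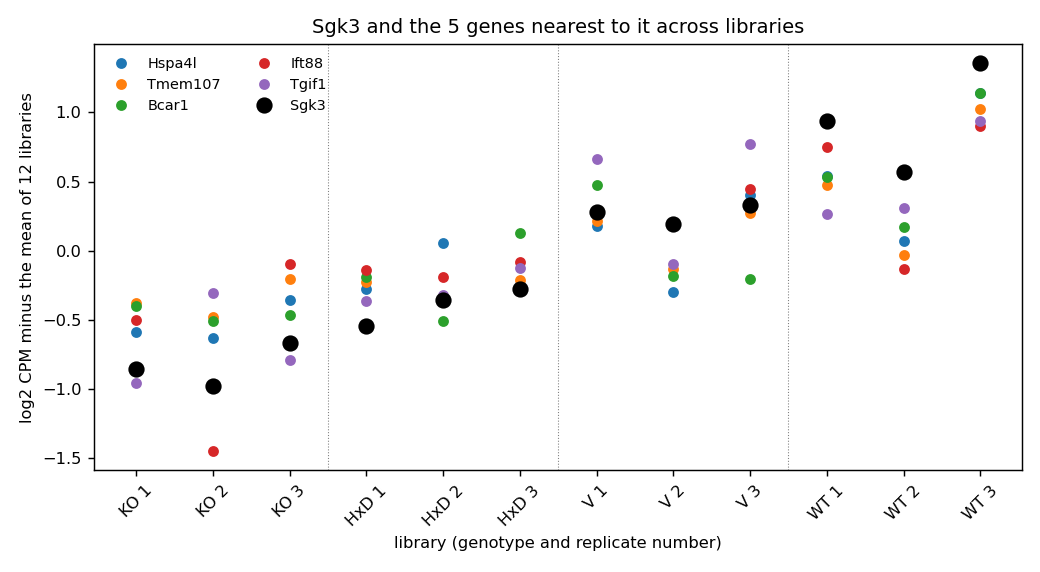
Centred log2 CPM in the 12 libraries for Sgk3 (black) and the 5 genes most like it (coloured). All 6 genes were chosen for this pattern, and their root mean square differences from Sgk3 run between 0.320 and 0.371.

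Promoters from RefSeq on GRCm38.p6, with 250 bases before and 50 after the start, were found for 7 of the 8 genes, Sgk3 being the one without an entry, and for 96 of the 120 pathway genes. A gene can have several starts, and then its window with the most CG dinucleotides was taken. The median number of CG in the 300 bases of that window was 31 for the 7 genes, 24 for the pathway and 8 over all 27025 genes. The FOXO motif GTAAACA, on either strand, was present in at least 1 window of 8 of the 96 pathway genes, or 8.33%, beside 4.05% of all genes, and among the 7 genes only Akt1 had it. The E-box CACGTG was present in at least 1 window of 15 pathway genes, or 15.6%, beside 8.09% of all genes, and among the 7 genes only Sgk1 had it. A gene with more starts has more windows in which a match can fall. The 27025 genes were not limited to those that passed the filter on low counts, whereas 113 of the 120 pathway genes passed it. The motif shares and CG medians therefore do not compare like sets of genes. Each E-box match also contains a CG, so the CG and E-box counts are not separate measures. These matches describe letters in the window and not binding.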

How the data were processed

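The deposited values are raw read counts, whole numbers with 1 row per gene symbol and no normalization. Per the labels' protocols, total RNA came from 5000 sorted cells, and mRNA was captured on oligo-dT beads before NEB library preparation. Reads were processed with STAR 2.7.10b, featureCounts 2.0.3, Trim Galore 0.6.7, SAMtools 1.9 and FastQC, per the submitters' processing notes. The builds GRCm39 and mm10 are named there with no role, and annotation, strand setting and read filters were not given in the sources used here, so antisense or overlapping genes cannot be told apart. Beads that capture poly(A) under-represent other RNA.

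The table had 12 columns that name a sample and 1 that names none, which was not used. A further listed WT sample was not analysed here. edgeR 4.0.16 in R 4.3.3 kept 14702 genes by its expression filter, scaled by TMM, and fitted the quasi-likelihood F-test to the 12 libraries with genotype as the only term (two-sided, Benjamini-Hochberg over all genes, threshold 0.05). The common biological coefficient of variation was 0.932. CPM are TMM-scaled. The fits were tested on simulated data. Intervals are at 95% and unadjusted. DESeq2 1.42.0, RLE scaling, other filters, fits on 2 genotypes, a replicate block and leaving out libraries were alternatives. No 2 libraries held identical counts. The pathway and marker lists and the 8 genes were chosen with earlier results of these data known. Beside the 8 genes, the naming rule took the 2 unchosen genes of each list with the smallest p against WT, the neighbours of Sgk3, the 5 genes most like it and Tet1. Some genes that this rule takes are not reported here.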

Additional observations from a re-analysis of the deposited data

How the results depend on the processing

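Of 546 values of the 7 genes other than Sgk3 under the alternatives, 514 kept their direction and side of the threshold and 32 changed sign. None of these 7 genes was called under any alternative. The log2 fold change of Sgk3 over 13 alternatives ran between -1.99 and -1.59 in KO, between -1.55 and -1.16 in HxD and between -0.89 and -0.50 in V against WT, and was weakest in V without WT replicate 3. Signs turned with WT 3 and V 3 set aside for Akt2 in HxD (-0.012) and in V (-0.18) against WT, for Pik3ca in KO against V (0.081), and in HxD against V for Sgk1 (0.10), Akt2 (0.17) and Pik3ca (0.13). Leaving out 1 library in turn gave ranges across 0 against WT for Akt2 in KO (-0.30 to 0.014), HxD (-0.057 to 0.19) and V (-0.097 to 0.36), Pdpk1 in KO (-0.093 to 0.15) and HxD (-0.19 to 0.20), Foxo3 in KO (-0.26 to 0.076), Sgk1 in V (-0.38 to 0.047) and Akt1 in V (-0.060 to 0.11). Between mutants it did so in KO against HxD for Akt1 (-0.15 to 0.053), Pdpk1 (-0.13 to 0.26) and Pik3ca (-0.12 to 0.057), in KO against V for Pik3ca (-0.38 to 0.081) and Foxo1 (-0.15 to 0.094), and in HxD against V for Sgk1 (-0.30 to 0.10), Akt2 (-0.29 to 0.17) and Pik3ca (-0.33 to 0.13). The cause of these changes of sign was not tested.

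The number of genes called over the whole table moved more. For KO against WT it was 32, with 274 by DESeq2, 148 with no expression filter, 15 among genes averaging at least 8 CPM, 12 in a fit on 2 genotypes, 104 with the replicate block, 11 with WT 3 and V 3 set aside, and 15 to 95 leaving out 1 library. For HxD against WT it was 5, with 213, 67, 3, 2, 45 and 2 under the same alternatives and 1 to 47 leaving out 1 library. For V against WT it was 0, with 81 by DESeq2, 32 with no filter, 8 with the block and 0 to 10 leaving out 1 library. For KO against HxD it was 1, with 128 by DESeq2, 8 with no filter, 8 with the block and 1 to 14 leaving out 1 library. For KO against V it was 3, with 89 by DESeq2, 21 with no filter, 0 on 2 genotypes, 16 with the block, 0 with WT 3 and V 3 set aside and 2 to 18 leaving out 1 library. For HxD against V it was 0, with 115 by DESeq2, 5 with no filter, 2 with the block and 0 to 11 leaving out 1 library. Of the 105 other pathway genes, 0 were called in KO against WT, with 2 by DESeq2, 1 with no filter and 1 with the block, and in HxD against WT 0 to 1 leaving out 1 library. The deviations of same-numbered libraries correlated at -0.065 to 0.088, and those of other-numbered libraries at -0.099 to 0.113. Whether same-numbered samples were paired cannot be told from these values. Depth limits genes near 0 CPM such as Tbc1d4 and Foxo6, while Sgk3 had at least 469 reads in each library.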
